A study of Homo sapiens with 12 samples.

Results

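The 188 genes described here were seen by CEL-seq2 and not by LAST-seq in single cells of the same line. A gene was taken when it averaged 1 UMI or more per cell in each CEL-seq2 library of HEK293T single cells and had 0 UMIs in both LAST-seq libraries of HEK293T single cells. A UMI (unique molecular identifier) is a random tag that marks 1 captured RNA molecule, so UMIs count molecules and not copies made by amplification. Of the 35651 genes listed in any table of the series, 10475 reached that mean in CEL-seq2, and 188 of them (1.79%) had no UMI in LAST-seq. The other 10287, with at least 1 LAST-seq UMI, are called the genes seen by both assays. The CEL-seq2 levels and the LAST-seq zeros chose these genes and are therefore given as a description, without a test.

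The study compared LAST-seq with CEL-seq2 and SMART-seq V4 in HEK293T cells, an embryonic kidney line that its methods call not authenticated, and applied LAST-seq to eHAP1 cells, a haploid line. Dead HEK293T cells were removed by a dye during the sort, and eHAP1 cells were sorted as live haploid cells in G1. LAST-seq was run on HEK293T single cells with the A60 spike-in mix (replicate 1) or the ERCC mix (replicate 2), on HEK293T lysate with the A60 mix, and on 15 pg of total RNA. CEL-seq2 was run on HEK293T single cells with both mixes (replicate 1) or the ERCC mix alone (replicate 2) and on HEK293T lysate. SMART-seq V4 was run on HEK293T single cells, of which the table used here holds 6, and on lysate with the A60 mix (replicate 1) or the ERCC mix (replicate 2). The eHAP1 cells were wild type (WT) or SCC4 KO, in which Cas9 had cut SCC4 (MAU2, a cohesin loader) and single cells had been expanded into clones. Each HEK293T library of LAST-seq and CEL-seq2 pooled 10 wells, which are not replicates of the assay, and each eHAP1 genotype was 1 sample of 2 batches with up to 80 cells each.

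The single-cell libraries were close in depth, with 1424870 and 1509801 UMIs for LAST-seq, and 1554129 and 1455889 for CEL-seq2, without spike-ins. The LAST-seq 15-pg RNA held 1108884 UMIs, the LAST-seq lysate 798047 and the CEL-seq2 lysate 845604. The eHAP1 tables were deeper, at 19671946 UMIs over 148 WT cells and 18112712 over 153 SCC4 KO cells. SMART-seq has no UMIs, and its 3 tables held between 4897271 and 12563463 reads. Of the 16 wells of SMART-seq lysate replicate 2, 6 matched the 6 single cells within sampling noise, so this library is given below without them. Well barcodes were the same 10 in all LAST-seq libraries of HEK293T and another 10 in all CEL-seq2 libraries, none was shared between these assays, and the WT and SCC4 KO cells of eHAP1 shared 145 barcode names. The HEK293T markers NEFL, LIN28B, VIM and KRT18 had counts in every HEK293T table. NEFM had none in the LAST-seq and SMART-seq single cells and 16 and 3 UMIs in the CEL-seq2 cells. PAX2 had at most 2 counts in any HEK293T single-cell table. The blood marker PTPRC, the liver marker ALB and the fibroblast marker COL1A2 had at most 4 counts in any HEK293T table. MAU2 had 833 UMIs in WT and 228 in SCC4 KO cells, lower but not 0 in the knockout.

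All 3 assays start from the poly-A tail. In LAST-seq a T7 promoter is joined to the 3′ end of the RNA itself, and T7 polymerase copies the single-stranded RNA. In CEL-seq2 the RNA is first turned into double-stranded cDNA, which T7 polymerase then copies. SMART-seq copies full-length cDNA by PCR. Processed pseudogenes are copies of spliced mRNAs that were pasted back into the genome, so they lack introns and resemble their parent gene over long stretches. Long noncoding RNAs (lncRNAs) include antisense RNAs, which are transcribed across another gene on the opposite strand. The sources used here do not state whether counting used the strand or how reads with several positions were treated, so reads of a gene and of its overlapping, antisense or near-identical partner cannot be told apart here.

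The sequences below show what some of these genes share with other loci. They were read from the GRCh38 genome, 5′ to 3′ on the strand of the gene. The first set holds the last 120 bases of the 3 genes with the highest CEL-seq2 levels, with the longest run of A in capitals, since an oligo-dT primer pairs with A. That run had 4 bases in GEMIN8P3 and 3 bases in both lncRNAs, whose 120 bases were the same. Only A on the strand of the gene was marked. The lncRNA stretches also hold a longer run of T, which is a run of A on the opposite strand, that of the rRNA described below.
GEMIN8P3, chrX:86304967-86305086, plus strand: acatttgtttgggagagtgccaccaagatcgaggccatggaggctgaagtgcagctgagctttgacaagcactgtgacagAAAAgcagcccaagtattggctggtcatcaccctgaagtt
ENSG00000280614, chr21:8393419-8393538, minus strand: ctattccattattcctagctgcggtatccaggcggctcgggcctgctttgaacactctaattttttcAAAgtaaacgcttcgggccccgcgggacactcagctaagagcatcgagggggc
ENSG00000280800, chr21:8210384-8210503, minus strand: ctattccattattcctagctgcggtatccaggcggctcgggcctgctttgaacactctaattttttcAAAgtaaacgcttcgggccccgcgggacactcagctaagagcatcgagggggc

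The second set holds 100 bases of processed pseudogenes beside the same stretch of the parent gene, with the differing bases in capitals. Each pair differed at 4 of the 100 bases. The stretches were picked as close matches with at least 4 differing bases, so this number follows from the choice. It does not measure how alike the whole genes are. Of all 50-base words in its exons, SEC63P1 shared 36.1% with SEC63, and HSP90AB2P shared 4.04% with HSP90AB1. The stretches lie inside the genes and were not chosen for their distance from the 3′ end.
SEC63P1, chr1:97546514-97546613, plus strand: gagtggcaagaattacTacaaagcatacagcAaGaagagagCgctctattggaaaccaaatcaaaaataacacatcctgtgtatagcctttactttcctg
SEC63, chr6:107881151-107881250, minus strand: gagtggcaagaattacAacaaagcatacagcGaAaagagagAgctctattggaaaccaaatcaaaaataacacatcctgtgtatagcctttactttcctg
HSP90AB2P, chr4:13336482-13336581, plus strand: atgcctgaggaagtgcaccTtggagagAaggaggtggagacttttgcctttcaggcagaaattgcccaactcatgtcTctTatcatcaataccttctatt
HSP90AB1, chr6:44248630-44248729, plus strand: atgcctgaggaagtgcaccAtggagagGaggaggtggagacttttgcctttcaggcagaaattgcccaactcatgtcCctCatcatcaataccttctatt

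The 188 genes differed in make-up from the genes seen by both assays. Processed pseudogenes were the largest class with 66 genes (35.1%), against 6.05% of the genes seen by both. There were 48 lncRNA genes (25.5% against 3.84%) and 14 other pseudogenes (7.45% against 1.29%). Protein-coding genes numbered 52 (27.7%), against 88.0% of the genes seen by both. Another 6 genes were of remaining types, such as small RNAs, and 2 were not in the annotation used here. Counted the other way, 9.59% of all processed pseudogenes, 10.8% of all lncRNA genes and 0.571% of all protein-coding genes that passed the CEL-seq2 threshold had no LAST-seq UMI. No test was made over genes, which are not replicates.

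Most of these genes were low in CEL-seq2. Their mean over both libraries ranged from 1 to 455.25 UMIs per cell with a median of 2, whereas the median of the genes seen by both was 5.35. The share without a LAST-seq UMI was 6.73% (92 of 1367 genes) at a mean of 1 to 2 UMIs and 2.03% (74 of 3646) at 2 to 5 UMIs. It was 0.576% (15 of 2602) at 5 to 10 UMIs and 0.245% (7 of 2860) at 10 or more. At a like level the types still differed. At a mean of 1 to 2 UMIs, 30 of 126 processed pseudogenes (23.8%) and 21 of 134 lncRNA genes (15.7%) had no LAST-seq UMI, against 29 of 1026 protein-coding genes (2.83%). Among the 166 genes with a mean under 5, 34.3% were processed pseudogenes and 28.3% were protein-coding, against 6.25% and 85.0% of the 4847 genes seen by both at such levels.

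**Figure D1:**
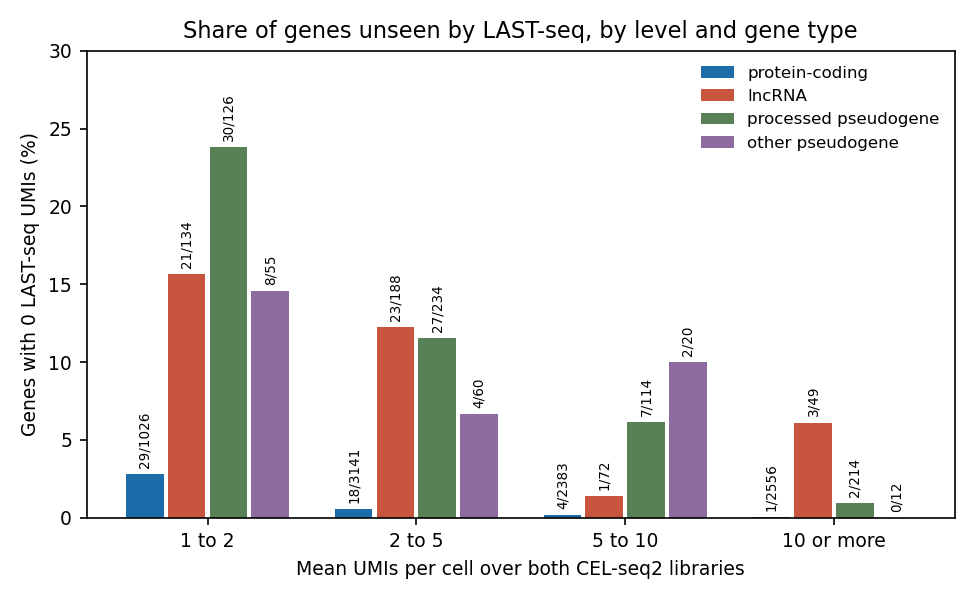
Share of genes with 0 LAST-seq single-cell UMIs (y axis, %) among genes that averaged 1 UMI or more per cell in each CEL-seq2 library, by mean CEL-seq2 level (x axis, UMIs per cell) and gene type (colour); the numbers above the bars are genes without LAST-seq UMIs over all genes of that class. At 1 to 2 UMIs the bar is 23.8% for processed pseudogenes and 2.83% for protein-coding genes, and no class is above 10.0% at 5 UMIs or more.

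A zero in LAST-seq limits the level and does not show absence. Over both LAST-seq libraries, 0 UMIs allow up to 3, which is 1.02 UMIs per 1000000 UMIs of the library (CPM). Set against that limit, the CEL-seq2 level in CPM was 6.5-fold higher for the lowest of the 188 genes. It was 13-fold higher for the median gene and 2959-fold higher for GEMIN8P3. The genes were chosen by their CEL-seq2 levels and LAST-seq zeros, so these folds describe the choice. They are not lower bounds on the true difference, and the lowest fold follows from the CEL-seq2 threshold. The limit of 3 UMIs covers counting error only, and does not allow for the choice of genes by their zeros. The LAST-seq zeros are also the end of a range, since another 131 genes past the CEL-seq2 threshold had 1 LAST-seq UMI in all and 93 had 2. Just inside the threshold lay ENSG00000279400 (means of 1 and 1 UMI), KIF4B, a kinesin gene (1 and 1.1), EPM2A-DT (1 and 1.1), NCOA4P4 (1.1 and 1) and NID2 (1.2 and 1). Just outside it by CEL-seq2 level lay MACC1 (7.8 and 0.9), ARHGEF10 (2.8 and 0.9), ENSG00000215268 (0.9 and 2.3), PDSS1 (0.9 and 2.1) and NOS1AP (1.9 and 0.9), all without a LAST-seq UMI. Some genes left out for a single LAST-seq UMI were far higher in CEL-seq2 than most of the 188. These were CLEC18A (182.4 and 190.2 UMIs per cell), CNR2 (140.1 and 135.8), HMGB1P26 (16.9 and 22.9), SHPRH (19 and 14.2) and ENSG00000254519 (18.7 and 10.1).

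The counts of most of the 188 genes were spread over CEL-seq2 cells, but over fewer cells than those of the genes seen by both. The median gene had a UMI in 16 of the 20 cells (quartiles 14 and 18). For the genes seen by both, which were also higher in CEL-seq2, the median was 19 cells (quartiles 17 and 20). Of the 188 genes, 119 had a UMI in at least 15 cells and 19 in all 20. The CEL-seq2 threshold itself favours genes with UMIs in many cells. In 18 genes a single cell held over 50% of the UMIs of a library. The CEL-seq2 libraries differed by a median of 1.43-fold in these genes and 1.39-fold in the genes seen by both. They differed by over 2-fold in 41 genes (21.8%, against 15.0% of the genes seen by both) and by over 5-fold in 3 genes, ENSG00000280614, Y_RNA and CHMP3-AS1. Replicate 1 was the higher library for 91 of the 188 genes (48.4%), against 68.9% of the genes seen by both. In replicate 1, for which reads were also deposited, these genes had a median of 1.37 reads per UMI and the genes seen by both 2.38. The gap was present in protein-coding genes (1.70 against 2.46) and lncRNA genes (1.22 against 1.94), whereas processed pseudogenes went the other way (1.34 against 1.09). Together the 188 genes held 0.752% and 0.686% of the UMIs of the CEL-seq2 libraries.

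**Figure D2:**
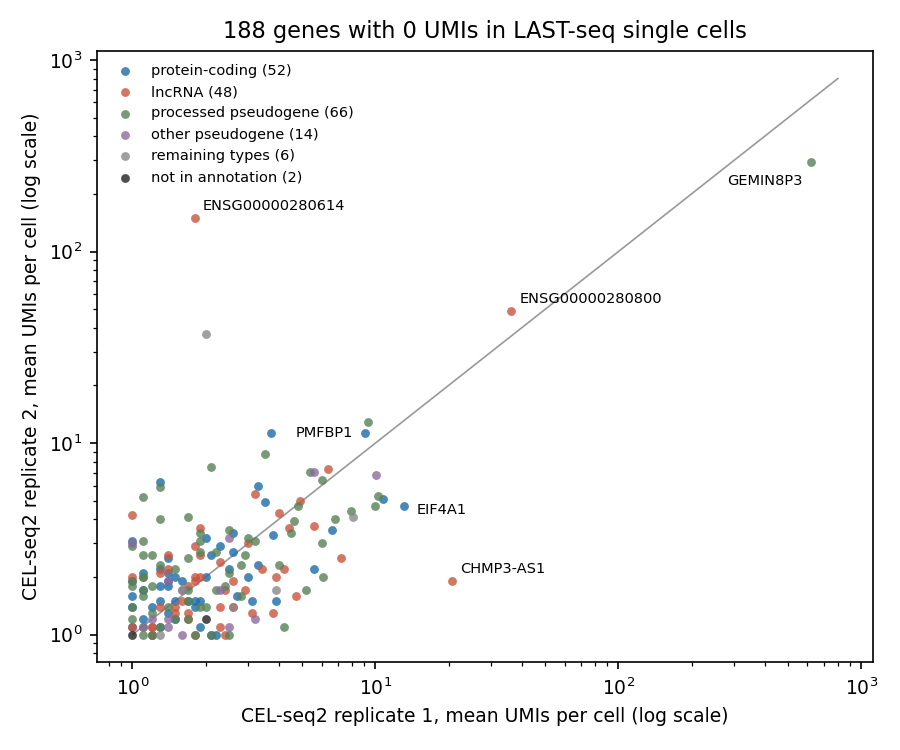
Mean UMIs per cell of the 188 genes in CEL-seq2 replicate 1 (x axis, log scale) and replicate 2 (y axis, log scale), 10 cells each; each point is a gene, coloured by type, and the line marks equal means. Most points lie under 5 UMIs near the line, GEMIN8P3 is the highest in both libraries, and ENSG00000280614 and CHMP3-AS1 stand off the line in opposite directions.

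GEMIN8P3 was the highest of the 188 genes by CEL-seq2 level. It is a processed pseudogene of 720 bases, named for GEMIN8, a part of the SMN complex that assembles small nuclear ribonucleoproteins. It lies on chromosome X at 86304367 to 86305086 on the plus strand, inside an intron of DACH2, a transcription cofactor gene of the same strand that had means of 0.1 and 0.2 UMIs per CEL-seq2 cell. CEL-seq2 gave it 6186 and 2919 UMIs, with a lowest, median and highest cell of 389, 616 and 809 UMIs in replicate 1 and 16, 244.5 and 818 in replicate 2. All 20 cells held it, and the cells of replicate 2 spread more widely. The CEL-seq2 lysate held another 1156 UMIs. The LAST-seq 15-pg RNA, the LAST-seq lysate, both eHAP1 tables and all 3 SMART-seq tables held 0, so that only CEL-seq2 libraries contained the gene. None of its 50-base words, the length of the cDNA reads, occurred in exons of another gene.

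The lncRNA genes ENSG00000280614 and ENSG00000280800 lie within ribosomal DNA on chromosome 21, on the strand opposite to the rRNA. Ribosomal RNA is the bulk of cellular RNA and is made from many near-identical gene copies. ENSG00000280614 (8393419 to 8394341, minus strand) lies wholly within RNA18SN3, a copy of the 18S rRNA gene, and ENSG00000280800 (8210384 to 8211306, minus strand) wholly within RNA18SN2. Both have 923 bases that match each other at every base and cover positions 754 to 1676 of the 1869-base rRNA gene. ENSG00000280614 had 18 and 1496 UMIs in the CEL-seq2 single cells and 225 in the CEL-seq2 lysate. In single cells it had 0 to 6 UMIs in replicate 1 and 23 to 601 in replicate 2, so the cells of the 2 libraries did not overlap. ENSG00000280800 had 363 and 490 UMIs, 17 to 73 per cell in replicate 1 and 8 to 200 in replicate 2, and 241 in the CEL-seq2 lysate. Outside CEL-seq2 the only counts of either gene were 3 UMIs of ENSG00000280800 in SCC4 KO cells. A gene of the same 923 bases, ENSG00000281181, named here for its sequence after the values were seen, had 5425 and 3200 UMIs in CEL-seq2 and fell outside the 188 through 1 and 2 LAST-seq UMIs. It had 1497 UMIs in the CEL-seq2 lysate, 2 each in the LAST-seq RNA and lysate, and 40 and 32 in eHAP1 WT and SCC4 KO cells. With identical sequences, how many UMIs each of the 3 genes receives depends on how reads are placed. The list of lncRNA genes on acrocentric short arms held 6 genes past the CEL-seq2 threshold, of which 3 had no LAST-seq UMI, against 10.8% of all lncRNA genes and 1.79% of all genes. The other of these, ENSG00000277693, had 42 and 22 UMIs in CEL-seq2, 13 in the CEL-seq2 lysate, none in the other LAST-seq tables, and 48, 123 and 102 SMART-seq reads in cells and in lysate replicates 1 and 2.

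The remaining genes among the 10 highest were of mixed types and had few counts in other LAST-seq tables. CHMP3-AS1, a lncRNA antisense to CHMP3, whose product acts in membrane fission, lies on chromosome 2 at 86562070 to 86618766 (plus strand) and had 206 and 19 UMIs in the CEL-seq2 single cells and 131 in the lysate. It had no UMI in any LAST-seq table, no read in the SMART-seq cells, and 7 and 1 reads in the SMART-seq lysates. Replicate 2 thus gave it fewer UMIs than the CEL-seq2 lysate, which had the lower depth. Of its words, 50.8% occurred in RNF103, a gene of the same locus on the opposite strand. The processed pseudogene ENSG00000232952 (chromosome 1, 105891739 to 105893517, plus strand) had 93 and 129 UMIs in CEL-seq2, 13 in the lysate, none in any LAST-seq table, and 65, 208 and 225 SMART-seq reads. The Y_RNA gene on chromosome 8, of a family of small RNAs bound by the Ro protein, had 20 and 369 UMIs in CEL-seq2 and 9 in the lysate. LAST-seq gave it 1 UMI in 15-pg RNA, 3 in lysate, and 29 and 26 in WT and SCC4 KO cells, and SMART-seq gave no read. OR2AL1P, an olfactory receptor pseudogene (chromosome 11, 105194440 to 105194946, minus strand), had 101 and 68 UMIs in CEL-seq2, in all 20 cells, and 0 in every other table, the CEL-seq2 lysate included.

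Of the protein-coding genes, PMFBP1, which acts in the head-to-tail joint of sperm (chromosome 16, 72112157 to 72176878, minus strand), was present in all 20 CEL-seq2 cells with 91 and 113 UMIs. It had 2 UMIs in the CEL-seq2 lysate, none in the LAST-seq RNA and lysate, 2 and 4 in eHAP1 WT and SCC4 KO cells, and 0, 1 and 6 SMART-seq reads. TENM4, a transmembrane teneurin (chromosome 11, 78652829 to 79441030, minus strand), had 107 and 51 UMIs in CEL-seq2 single cells and 3 in the lysate. It had none in the LAST-seq RNA and lysate, 63 and 39 in eHAP1 WT and SCC4 KO cells, and 2, 0 and 0 SMART-seq reads. Both genes were thus far lower in the CEL-seq2 lysate than in the CEL-seq2 cells, with 1.09 and 1.07 reads per UMI in replicate 1. EIF4A1, the RNA helicase of the cap-binding complex (chromosome 17, 7572824 to 7579006, plus strand), had 131 and 47 UMIs in CEL-seq2, 28 in the lysate, 2 in LAST-seq RNA, 12 and 71 in eHAP1, and 123, 98 and 116 SMART-seq reads. Its last 500 bases lie wholly within ENSG00000264772, a lncRNA of the same strand that had 0 and 1 UMIs in the LAST-seq cells and 0 and 2 in the CEL-seq2 cells. SENP3-EIF4A1, of the same strand, overlapped 1468 exonic bases of EIF4A1 and had no UMI in these cells. Of the words of EIF4A1, 4.72% occurred in EIF4A1P10, a processed pseudogene elsewhere, named after its values were seen. EIF4A1P10 had 48 and 52 UMIs in the LAST-seq cells and means of 10 and 15.3 UMIs per CEL-seq2 cell. LAST-seq thus counted a gene that shares part of the sequence of EIF4A1.

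The next highest genes by type showed the same range. Of the processed pseudogenes, TTC3P1 had 102 and 53 UMIs in CEL-seq2 and 23 in the lysate, none in the LAST-seq RNA and lysate, 123 in WT and 5 in SCC4 KO cells, and 74, 243 and 232 SMART-seq reads. Of its WT UMIs, 120 were in batch 2 and 3 in batch 1. Of the other pseudogenes, CEP170P1 had 56 and 71 UMIs, 9 in the lysate, 1 each in LAST-seq RNA and lysate, and 21 and 84 in eHAP1. SMG1P5, a copy of the kinase gene SMG1, had 25 and 32 UMIs, 10 in the lysate, none in LAST-seq RNA and 1 in LAST-seq lysate. RNU6-1035P, a U6 pseudogene, had 81 and 41 UMIs in only 9 of the 20 cells, and Metazoa_SRP, a signal recognition particle RNA, had 39 and 17 in 7 cells. Both had no read in SMART-seq, and each had 1 read per UMI in CEL-seq2 replicate 1.

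The choice did not use the lysate and 15-pg RNA libraries. Most of the genes were present in the CEL-seq2 lysate and missing from the LAST-seq lysate and 15-pg RNA. The CEL-seq2 lysate held at least 1 UMI of 178 of the 188 genes (94.7%, interval 90.4 to 97.4), against 99.3% of all 10475 genes. The LAST-seq lysate held 35 of them (18.6%, 95% exact interval 13.3 to 24.9), against 94.1% of all 10475 genes and 95.5% of the genes seen by both. The LAST-seq 15-pg RNA held 50 (26.6%, interval 20.4 to 33.5), against 96.5% of all and 97.7% of the genes seen by both. The intervals treat genes as independent draws and cover counting error only. The difference was also present among genes with a mean under 5 UMIs, where 27.7% of these genes and 95.9% of those seen by both were in LAST-seq RNA, and 19.3% and 91.7% in LAST-seq lysate. With 1 lysate library per assay, no replicate of this comparison exists. In lysate and in total RNA, fewer cells with an RNA and less of it per cell cannot be told apart.

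**Figure D3:**
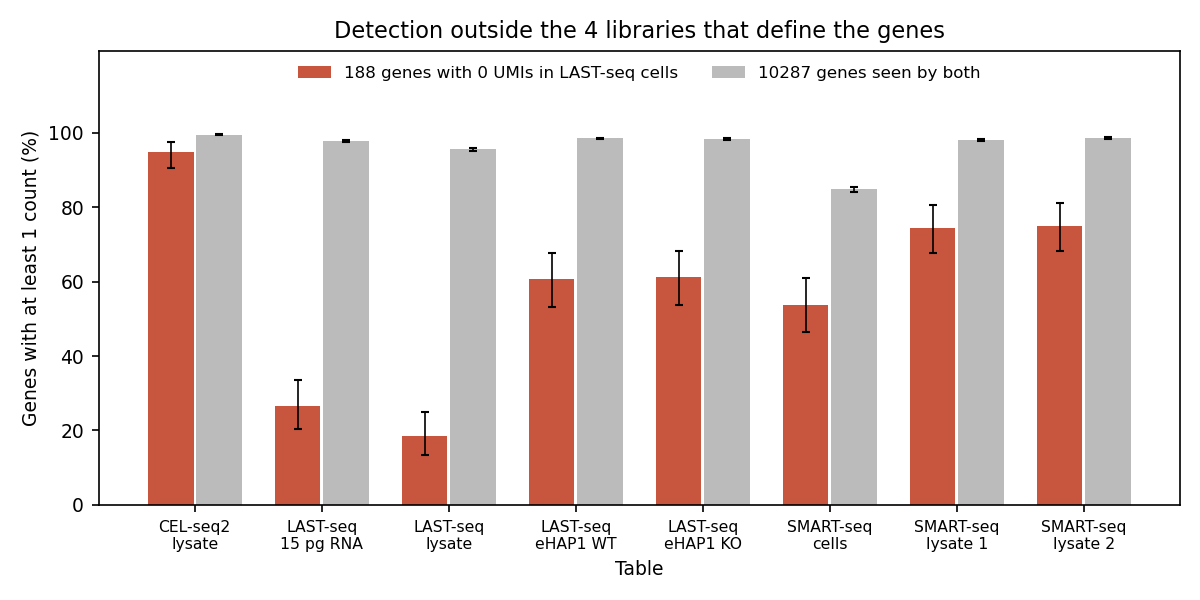
Share of genes with at least 1 UMI or read (y axis, %) in each table that did not choose the genes (x axis), for the 188 genes (red) and the 10287 genes seen by both assays (grey); error bars are exact 95% binomial intervals over genes, and SMART-seq lysate 2 is without its 6 matched wells. The 188 genes reach 94.7% in CEL-seq2 lysate, 18.6% in LAST-seq lysate and 60.6% in eHAP1 WT cells, whereas the lowest grey bar is 84.7%.

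Scaled to the UMIs of each library, 171 of the 188 genes (91.0%) were higher in the CEL-seq2 lysate than in the LAST-seq lysate, against 59.7% of all 10475 genes, and 8 were lower. Their summed UMIs were 3027 in the CEL-seq2 lysate (0.358% of its UMIs) and 67 in the LAST-seq lysate (0.0084%). The 15-pg RNA gave 103 (0.00929%). Where LAST-seq RNA or lysate held these genes, the counts were small. The highest in LAST-seq RNA were ITGA11, an integrin subunit, and NEB, the giant muscle protein nebulin, with 6 UMIs each. RGPD4, a RANBP2-like gene, the pseudogene SSBL3P, CEPT1, an enzyme of phospholipid synthesis, and PAX6, a transcription factor of eye and brain, had 5 each. The highest in LAST-seq lysate were PAX6 with 9 UMIs, the antisense gene FAM13A-AS1 with 5, the guanine nucleotide exchange factor ARHGEF40 and the histone gene H2AC12 with 4 each, and Y_RNA, which shared a count of 3 with 3 other genes. In the CEL-seq2 lysate the 5 named had 12, 6, 1, 8 and 9 UMIs, so ARHGEF40 was the one of the 5 with more UMIs in LAST-seq. Of the 188 genes, 26 (13.8%) exceeded in 15-pg RNA the 1.02 CPM that the single-cell zeros allow. In that library 3 UMIs are 2.71 CPM, so counts under 3 UMIs can pass this limit. The median there was 0 CPM for the 188 genes and 24.3 CPM for the genes seen by both.

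**Figure D4:**
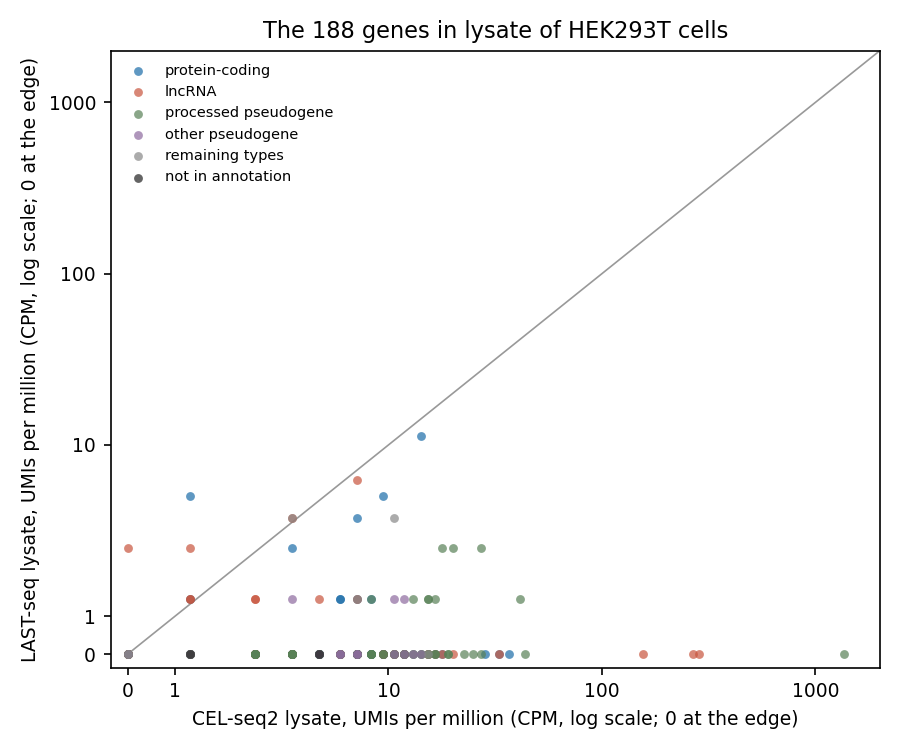
UMIs per 1000000 UMIs (CPM) of the 188 genes in the CEL-seq2 lysate (x axis, log scale) and the LAST-seq lysate (y axis, log scale), 1 library of 10 wells each; a value of 0 is drawn at the edge, points are coloured by gene type and the line marks equal values. Of the 188 points, 171 lie below the line and 8 above it, and most lie on the lower edge at 0 LAST-seq UMIs.

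In eHAP1 cells, another line sequenced by LAST-seq to a greater depth, more of the genes were seen. WT cells held 114 of the 188 (60.6%, against 97.8% of all 10475 genes), SCC4 KO cells 115 (61.2%, against 97.7%) and either genotype 131 (69.7%, against 98.5%). Their level stayed low, with a median of 12 UMIs over all 301 cells against 835 for the genes seen by both, and 0.0170% and 0.0154% of the UMIs of WT and SCC4 KO cells. The highest was the processed pseudogene ENSG00000255836 with 908 UMIs in WT cells (361 and 547 in the batches) and 141 in SCC4 KO cells (18 and 123), so both WT batches held more UMIs than both SCC4 KO batches. ARHGEF40 had 144 and 119 UMIs, and the antisense lncRNA HDAC2-AS2 had 63 and 131. SCUBE3, a secreted protein gene, had 161 and 15 UMIs and was higher in both WT batches (44 and 117) than in the SCC4 KO batches (5 and 10). IGF2BP3, an RNA-binding protein gene, had 8 and 134 UMIs and was higher in both SCC4 KO batches (105 and 29) than in the WT batches (3 and 5). The batch counts are raw sums, not scaled to the depth or the number of cells of a batch. With 1 sample per genotype they are levels of single samples and were not tested. Of the 188 genes, 44 (23.4%) exceeded in eHAP1 the 1.02 CPM that the zeros in HEK293T cells allow. The median in eHAP1 was 0.318 CPM for the 188 genes and 22.1 CPM for the genes seen by both. For the genes past the limit, the line, the cells and the batch cannot be told apart.

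Over the 4 LAST-seq tables outside the choice, 48 of the 188 genes had no UMI in any, against 13 of the 10287 genes seen by both, and 17 had UMIs in all 4, against 9550. By type, LAST-seq RNA held 23 of 52 protein-coding genes (44.2%), 10 of 48 lncRNA genes (20.8%) and 12 of 66 processed pseudogenes (18.2%). For the genes seen by both these shares were 98.6%, 90.6% and 93.4%, so protein-coding genes had the highest share in either set. In LAST-seq lysate the counts were 10, 10 and 9. In eHAP1 they were 44 (84.6%), 36 (75%) and 36 (54.5%), against 99.2%, 98.5% and 97.9% of the genes seen by both, and the exact 95% binomial intervals of the first 2 types overlapped (71.9% to 93.1% and 60.4% to 86.4%). Differences between types were not tested. SMART-seq single cells held reads of 101 of the 188 genes (53.7%, against 84.2% of all 10475). By type these were 56 of the 66 processed pseudogenes (84.8%), 27 of the 52 protein-coding genes (51.9%) and 8 of the 48 lncRNA genes (16.7%). The genes seen by both had the same order of types, with 94.5%, 85.1% and 64.3%. Lysate replicate 1 held 140 (74.5%, against 97.6%) and lysate replicate 2 without its matched wells 141 (75%, against 98.2%). The highest in SMART-seq cells were processed pseudogenes throughout: H3P36 with 532 reads, DNAJB6P1 with 357, PTGES3P1 with 311, YWHAZP3 with 267 and TCEA1P2 with 250. Of these, H3P36 had 1 UMI each in LAST-seq RNA and lysate and 44 and 95 in eHAP1, whereas YWHAZP3 and TCEA1P2 had none in any LAST-seq table. In all, 28 of the 188 genes (14.9%) had SMART-seq reads and no UMI in any LAST-seq table. The genes seen by both have LAST-seq UMIs by definition, so they give no share to set beside this. A further 3 genes had no count outside the CEL-seq2 single cells (OR2AL1P, MTCYBP2 and HSPD1P11). HSPD1P11, a pseudogene of a mitochondrial chaperone, was named after its values were seen.

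The 66 processed pseudogenes shared sequence with other genes, but less than the processed pseudogenes seen by both. A median of 11.3% of their 50-base words occurred in exons of other genes, against 18.3%. Of the 66, 52 shared the most 50-base words with a protein-coding gene elsewhere in the genome, at a median of 17.8% of their words. Of these 52 partners, 51 had UMIs in both LAST-seq libraries and 49 were higher than the pseudogene in CEL-seq2. Of all 10475 genes past the CEL-seq2 threshold, 10287 had at least 1 LAST-seq UMI over both libraries. LAST-seq UMIs in a partner are therefore not particular to these pairs. The pseudogene had a median of 11.6% of the CEL-seq2 UMIs of its partner. Over the pairs, the partner's ratio of LAST-seq to CEL-seq2 UMIs had a median of 0.477 (quartiles 0.268 and 0.765). The median was 0.742 for protein-coding genes seen by both, each counted 1 time. TCEA1P2, 82.5% of whose words occur in the elongation factor gene TCEA1, had 60 and 64 UMIs in CEL-seq2, and TCEA1 had 207 in all in CEL-seq2 and 93 in LAST-seq. ITGB1P1, with 100% of its words in the integrin gene ITGB1, had 29 and 26 UMIs in CEL-seq2 and 49 reads in SMART-seq cells, while ITGB1 had 141 UMIs in CEL-seq2 and 14 in LAST-seq. PTGES3P1 had 35 and 88 UMIs in CEL-seq2, and its partner PTGES3, a co-chaperone, had 1451 in CEL-seq2 and 1415 in LAST-seq. LAST-seq counted the parent gene in each of these cases. SEC63P1 and HSP90AB2P, whose sequences are shown above and which were picked after the values were seen, had 100 and 47, and 54 and 71 UMIs in CEL-seq2. Their partners SEC63, of protein import into the endoplasmic reticulum, and HSP90AB1, a chaperone, had 168 and 2264 UMIs by LAST-seq, against 491 and 3940 by CEL-seq2. In ENSG00000232952 the partner was the lower one, since MATR3, a nuclear matrix protein gene that shares 11.3% of the pseudogene's words, had 46 UMIs in CEL-seq2 and 9 in LAST-seq.

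Over all types, 31 of the 186 annotated genes (16.7%) had at least 50% of their words in exons of other genes, against 4.87% of the genes seen by both. Within types the order differed. The share was 13.6% of processed pseudogenes against 21.2% of those seen by both, and 8.33% against 10.6% of lncRNA genes. It was 13.5% against 2.29% of protein-coding genes, and 78.6% against 79.7% of other pseudogenes. Among genes that averaged 2 UMIs or more in each CEL-seq2 library, the largest shares were 100% in ENSG00000280800 and ITGB1P1, 98.6% in SMG1P5, 86.9% in NBPF26 and 82.5% in TCEA1P2. SMG1P5 shared 93.6% with SMG1P2. NBPF26, of a primate gene family with many copies, shared 52.3% with NBPF14, and had 20 and 32 UMIs in CEL-seq2, 7 in the lysate, 1 in LAST-seq RNA, and 21 and 5 in eHAP1.

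The genes were shorter than those seen by both, with a median exonic length of 2341.5 bases against 5432, and the types went different ways. Protein-coding genes were longer (7448.5 against 5859 bases), processed pseudogenes were longer (1115.5 against 612), and lncRNA genes were shorter (2845 against 4346). GC content had a median of 44.2% against 45.9%, and also went both ways by type. It was higher in protein-coding genes (48.5% against 46.0%) and lower in processed pseudogenes (43.1% against 46.1%) and lncRNA genes (43.7% against 45.2%). In the last 300 bases of the longest transcript, where T7 polymerase would start, the median GC was 41.8% against 39.0%, but none of the 3 largest types was higher on its own. The medians were 38% in both sets of protein-coding genes, 41.3% against 42.7% in lncRNA genes and 42.7% against 45% in processed pseudogenes. The minimum free energy of the last 250 bases, a measure of folding, had a median of −54.75 kcal/mol against −53.0. By type it was −52.4 against −51.9 in protein-coding genes, −58 against −57.15 in lncRNA genes and, with the opposite sign of difference, −54.3 against −62 in processed pseudogenes. A single exon block made up 40.9% of the genes, against 8.89%. The poly-A signal AATAAA, searched on the strand of the transcript, was in the last 50 bases of 29.6% of the genes against 56.0%. Within types the shares lay closer, at 67.3% against 61.0% of protein-coding genes, 35.4% against 41.0% of lncRNA genes, and 4.55% against 6.43% of processed pseudogenes. A run of at least 10 A directly downstream of the gene, within 50 bases, was present in the genome at 4.55% of the processed pseudogenes against 15.9% of those seen by both. The lncRNA genes went the other way, with 12.5% against 7.59%, and protein-coding genes had 1.92% against 1.84%.

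Overlap with another gene was about as frequent as elsewhere, and differed in where it lay. Of the 186 annotated genes, 137 (73.7%) overlapped another gene on either strand, against 71.4% of the genes seen by both. Exons overlapped exons in 37.1% against 49.6%. Among protein-coding genes, however, 35 of 52 (67.3%) had exons opposite to exons of another gene, against 42.3%. The 3′ ends were then examined, as a measure chosen after these values were seen. In 17 of the 52 protein-coding genes (32.7%, exact interval 20.3 to 47.1), at least 50% of the last 500 bases lay under opposite-strand exons of other genes, against 4.89% of all 9106 protein-coding genes past the threshold. In 12 (23.1%) the last 500 bases were wholly covered, against 2.34% of those seen by both. At a mean under 5 UMIs the counts were 16 of 47 (34%) and 217 of 4120 (5.27%).

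**Figure D5:**
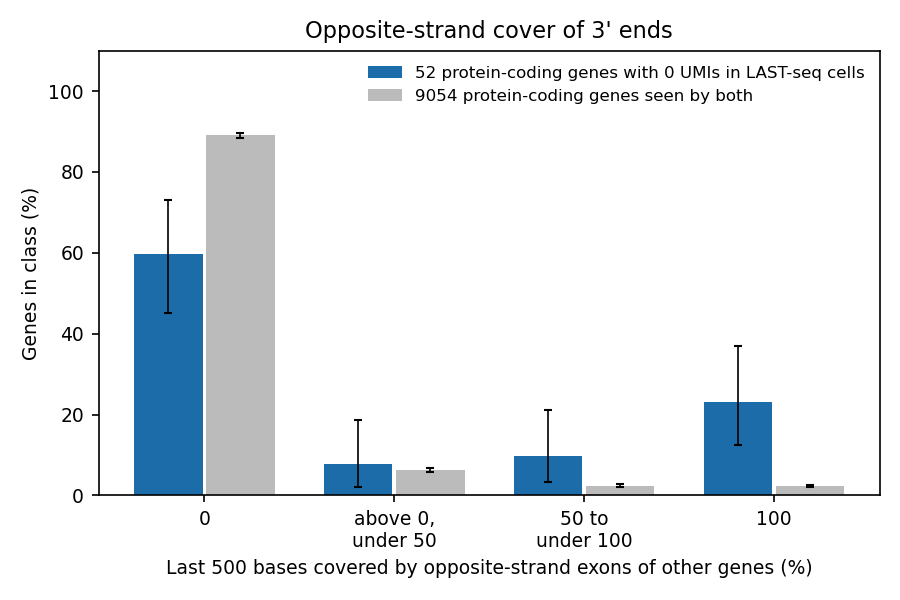
Share of protein-coding genes (y axis, %) by how much of their last 500 bases lay under opposite-strand exons of other genes (x axis, % covered), for the 52 protein-coding genes without LAST-seq UMIs (blue) and the 9054 seen by both assays (grey); error bars are exact 95% binomial intervals over genes. Wholly covered ends make up 23.1% of the blue genes and 2.34% of the grey ones, and uncovered ends 59.6% and 89.1%.

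The partner over the 3′ end was a protein-coding gene for 11 of these 17 genes, and a lncRNA or an entry awaiting annotation for the other 6. CRYBG3 (chromosome 3, 97822011 to 97944984, plus strand), with 66 and 35 UMIs in CEL-seq2, 1 in the CEL-seq2 lysate and none in any LAST-seq table, had its end under RIOX2, a ribosomal oxygenase gene. RIOX2 had 64 and 40 UMIs in the LAST-seq cells and 55 and 43 in the CEL-seq2 cells, so both assays counted the partner. CRYBG3 had 29, 210 and 153 reads in the SMART-seq tables, which cover whole transcripts. IGF2BP3 had 35 and 49 UMIs in CEL-seq2 and 31 in the lysate, and its partner MALSU1, a mitochondrial ribosome assembly gene, had 105 and 115 UMIs by LAST-seq against 107 and 129 by CEL-seq2. DOP1A, of endosome traffic, had 56 and 22 UMIs in CEL-seq2, and its partner PGM3, an enzyme of amino sugar synthesis, had 46 and 80 UMIs by LAST-seq against 80 and 62 by CEL-seq2. Other LAST-seq tables did hold DOP1A, with 1 UMI in 15-pg RNA, 2 in lysate, and 4 and 12 in eHAP1 WT and SCC4 KO cells. PAX6 had 26 and 34 UMIs in CEL-seq2, and its partner ELP4, an Elongator subunit, had 22 and 44 UMIs by LAST-seq against 61 and 60 by CEL-seq2. EPN2, an endocytic adaptor, had 33 and 23 UMIs in CEL-seq2, and its partner B9D1, a gene of the primary cilium, had 22 and 24 UMIs by LAST-seq against 22 and 43 by CEL-seq2. The partners of NID2 and ASAP2 were the highest, with 283 and 280 LAST-seq UMIs for RTRAF and 369 and 543 for ITGB1BP1. The genes in this paragraph and the next other than IGF2BP3, PAX6, NID2 and EIF4A1 were named after their values were seen.

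The other genes with a protein-coding partner were SMG6, an endonuclease of mRNA decay (partner HIC1), CD160, a receptor of lymphocytes (RNF115), the kinase gene STK24 (FARP1) and the cyclin gene CCNK (CCDC85C). HYOU1, CEPT1, AKAP8L, KSR2 and DLG5 ended under lncRNAs and EEF1D under an unclassified entry. These partners had at most 2 UMIs in any LAST-seq or CEL-seq2 single-cell library. Of the 18 protein-coding genes with ends covered on either strand, EIF4A1 included, 17 had reads in SMART-seq lysate replicate 1. The share there was 97.6% of all 10475 genes, and 38 of the 52 protein-coding genes described here (73.1%). In the SMART-seq cells some of the 18, such as PAX6, DOP1A and NID2, had no read, whereas others, such as IGF2BP3 and CEPT1, had reads. Among genes outside the 188, cover of the 3′ end by opposite-strand exons went with a lower ratio of LAST-seq to CEL-seq2 UMIs. Such a ratio cannot tell a lower LAST-seq count from a higher CEL-seq2 count. Among protein-coding genes seen by both, the ratio of LAST-seq to CEL-seq2 UMIs had a median of 0.535 (quartiles 0.241 and 0.975) in the 428 genes with such covered ends. It was 0.754 (0.448 and 1.20) in the 8066 with no cover, and 11% and 2.76% of these genes had a ratio under 0.1. Coverage is given here as a description over genes, and its part in the zeros was not tested.

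Gene families were described by lists. Of 97 antisense genes (symbols with -AS) past the CEL-seq2 threshold, 8 (8.25%) had no LAST-seq UMI, against 1.79% of all genes and 10.8% of all lncRNA genes, the type to which antisense genes belong. These were CHMP3-AS1, FAM13A-AS1, HDAC2-AS2, HMGA2-AS1, HOXA-AS3, NFATC2IP-AS1, ZBTB47-AS1 and ZNF790-AS1. HMGA2-AS1, opposite to a chromatin protein gene, had 17 and 18 UMIs in CEL-seq2 and 88 and 49 in eHAP1, and HOXA-AS3, of the HOXA cluster, had 34 and 22 in CEL-seq2 and 9 and 35 in eHAP1. Both had none in LAST-seq RNA and lysate. NFATC2IP-AS1 (31 and 13 UMIs in CEL-seq2) and ZBTB47-AS1 (17 and 12) had none in eHAP1. Of 256 ribosomal protein pseudogenes, only RPS3AP4 (0.391%) was among the 188, with 13 and 23 UMIs in CEL-seq2, 17 in the CEL-seq2 lysate, 1 in LAST-seq RNA and 2 in LAST-seq lysate. This share was below that of all processed pseudogenes. Of 260 zinc finger symbols 2 were among the 188, the pseudogene ZNF75CP and the antisense gene ZNF790-AS1.

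The smaller lists gave few genes, and their counts stand beside 1.79% of all genes, 9.59% of all processed pseudogenes and 9.52% of other pseudogenes. Of 7 replication-dependent histone genes, H2AC12 was the 1 without LAST-seq UMIs in cells, with 11 and 21 UMIs in 8 CEL-seq2 cells, 4 UMIs in LAST-seq lysate and 21 in SCC4 KO cells. Of 22 mitochondrial pseudogenes 1 was included, of 6 small nuclear, nucleolar and Cajal body RNAs 1, of 11 genes of 7SK, 7SL and Y RNAs 2, and of 1 readthrough gene 0. Lists added after the values were seen held OR2AL1P and OR2C3 of 4 olfactory receptor genes, HMGB1P4, HMGB1P20, HMGB1P21 and HMGB1P44 of 13 HMGB1 pseudogenes, and SMG1P1 and SMG1P5 of 7 SMG1 pseudogenes. The HMGB1 pseudogenes had 12 to 28 UMIs per CEL-seq2 library. HMGB1P20 had 201 reads in SMART-seq cells and HMGB1P44 had 3, and in eHAP1 they had 4 and 5, and 0 and 0 UMIs.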

How the data were processed

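The authors deposited UMI counts for each gene in each well of the LAST-seq and CEL-seq2 libraries, and counts of sequencing reads for SMART-seq and for some UMI libraries, as whole numbers without normalization. Per the labels and the study's methods, reads were converted by bcl2fastq 2.20, trimmed with cutadapt, aligned to GRCh38 with the spike-in sequences in zUMIs, subsampled to an equal depth across assays and counted in exons, and UMIs were collapsed by sequence identity. The subsampling means that a count of 0 can reflect reads that were set aside. Strand use and the treatment of reads with several positions are not given in the sources used here.

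ERCC and A60 spike-ins were left out of all totals. UMIs were summed over wells and given per 1000000 UMIs (CPM) where stated. A count of 0 was taken to allow up to 3 UMIs. Samples were grouped by assay, input and spike-in mix in their labels. Pairs of SMART-seq wells were called matching when the squared difference of a gene's reads, divided by their sum, averaged under 2. Gene type, exons and overlaps came from a GENCODE annotation of GRCh38 that is later than the authors', and held 186 of the 188 genes. RNA18SN and RNA45SN positions came from RefSeq. Every 50-base word of a gene's exons was searched in the exons of all other genes and in the genome on both strands, and words of 35 bases were an alternative. Folding used RNAfold 2.7.2. Genes that share sequence or lie in overlap are uncertain in all tables.

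The genes and lists were chosen with earlier results of these data known, and the cover of 3′ ends and the lists said to be added were chosen after seeing the values. Genes were named when they were the 10 highest in CEL-seq2, the 3 highest of each type, the 5 highest in LAST-seq RNA, LAST-seq lysate, eHAP1 or SMART-seq cells, the 5 with the most shared words, members of the lists, or next to a threshold. Other names are marked as chosen after their values were seen. With 1 or 2 libraries per assay no test between assays was made, and shares have exact (Clopper-Pearson) 95% intervals. The word search and the rule for choosing the genes were tested on simulated data. Alternatives changed the thresholds, left out single libraries, or changed the definition of detection, overlap and sharing. Calculations used Python 3.11.15, numpy 2.4.6, pandas 2.3.3, scipy 1.17.1, numba 0.67.0 and matplotlib 3.10.9.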

Additional observations from a re-analysis of the deposited data

How the results depend on the processing

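Of 113 alternatives over 12 results, 73 stayed within 1.5 times the count or within the interval of the value, and 40 moved. The number of genes rested most on the choice of threshold, being 533 at a mean of at least 0.5 UMI, 59 at 2 UMIs and 501 with up to 2 UMIs in each LAST-seq library. Without a library it ranged from 300 to 465, namely 300 and 359 without LAST-seq replicate 1 or 2 and 319 and 465 without CEL-seq2 replicate 1 or 2, and each of these lists held all 188. With cells scaled to 1 total, 186 genes passed, of which 175 were among the 188.

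With up to 2 LAST-seq UMIs allowed, 37.3% of genes were protein-coding, and 50.5%, 37.1% and 84.4% had UMIs in LAST-seq RNA, LAST-seq lysate and eHAP1. At a mean of at least 0.5 UMI, 84.8% were in the CEL-seq2 lysate and 41.7% in SMART-seq cells. At 2 UMIs, 76.3% were in eHAP1 and 9 of 18 protein-coding genes (50%) had covered ends. A minimum of 3 UMIs gave 6.38% in LAST-seq RNA, 4.26% in LAST-seq lysate and 74.5% in CEL-seq2 lysate, and 10 reads gave 38.8% in SMART-seq cells. SMART-seq lysate 1 or 2, with all wells, in place of cells gave 74.5% or 77.7%, and eHAP1 WT cells alone 60.6%. The last 300 bases had a median GC of 41.8%. Overlap was 32.8% on the same strand and 37.1% between exons, and sharing was 48.4% at 10% of words and 10.8% in the genome.

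Without single libraries the shares ranged from 27.9% to 36.8% for protein-coding genes, 67.9% to 76.7% for overlap, 13.3% to 16.6% for sharing and 16.2% to 30.3% for covered ends. The median length ranged from 2233 to 3014.5 bases and the median GC from 44.4% to 45.1%. Detection ranged from 22.3% to 43.5% in LAST-seq RNA, 16.3% to 31.5% in LAST-seq lysate, 79.8% to 95% in CEL-seq2 lysate, 65.2% to 81.3% in eHAP1 and 34.4% to 56.0% in SMART-seq cells. The larger moves came without LAST-seq replicate 2 (43.5% in LAST-seq RNA, 31.5% in LAST-seq lysate and 18.9% covered ends), without LAST-seq replicate 1 (29.7% in LAST-seq lysate) and without CEL-seq2 replicate 2 (34.4% in SMART-seq cells and 16.2% covered ends). Leaving out a library also drops a condition of the rule, so each list is looser. Without a LAST-seq library, genes with UMIs in it enter the list by construction. The moves therefore cannot be read as the influence of that library alone, and their cause was not tested. No paired analysis was possible because replicate numbers were given in accession order and the results come from no test. LAST-seq lysate, CEL-seq2 lysate, 15-pg RNA and SMART-seq cells had 1 library each, which could not be left out. Counts of 1 to 3 UMIs in LAST-seq RNA and lysate are near the limit of their depth.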
